A study of Mus musculus with 3 samples.

Results

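The enzymes that break fatty acids down and feed the tricarboxylic acid (TCA) cycle were followed in adult mouse cardiomyocytes (ACMs) exposed to cytokines in culture. The gene set holds 39 genes, chosen by symbol from the 56748 genes of the deposited table, and all 39 were found there as protein-coding genes. It covers 8 steps, namely fatty acid activation and import, the acyl-CoA dehydrogenases, the hydratase, dehydrogenase and thiolase reactions, auxiliary enzymes, the electron transfer flavoproteins, ketone body enzymes, the pyruvate dehydrogenase complex with its kinases, and the TCA cycle itself. ACMs were isolated without a Langendorff apparatus from hearts of wild-type mice aged 8 to 10 weeks and kept in serum-free M199 with BDM, an inhibitor of contraction, together with insulin-transferrin-selenium and a lipid supplement. For 16 h they received medium with 0.1% BSA (vehicle), 10 ng/mL mouse oncostatin-M (OSM) or 10 ng/mL human IL-6, and BSA, BDM and the lipid supplement were present in all 3 conditions. RNA was pooled before sequencing, so that each condition is 1 library, and how many hearts or dishes a pool holds is not given in the sources used here.

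The heart takes most of its ATP from fatty acids. Long chains are activated to acyl-CoA, carried into the mitochondrion on carnitine and shortened by repeated rounds of dehydrogenation, hydration, dehydrogenation and thiolysis, and the acetyl-CoA released is oxidised in the TCA cycle together with that from pyruvate and ketone bodies. OSM and IL-6 act through receptors that share gp130 and signal through JAK kinases and STAT3, and heart muscle that dedifferentiates or fails is known to lower its fatty acid oxidation genes.

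The libraries held 24939980 (vehicle), 26362446 (IL-6) and 30773001 (OSM) counts assigned to genes. ACM identity was checked with 11 cardiomyocyte markers, which took 4.69% of the vehicle, 4.82% of the IL-6 and 5.16% of the OSM counts. Single markers moved both ways with OSM, 6 above vehicle and 5 below. Ttn was 3.11-fold and Ryr2 2.88-fold lower, both very long genes, and Myl3 was 1.65-fold higher. Markers of other cell types had far fewer counts. The 6 endothelial markers summed to 822, 931 and 1049 counts in vehicle, IL-6 and OSM, the 6 fibroblast markers to 135, 138 and 196, and the 5 smooth muscle and pericyte markers to 123, 102 and 141. The 4 adipocyte markers summed to 0, 0 and 2 counts, and a count of 0 allows up to 3 counts, or a CPM of 0.120 in the vehicle library. The 6 macrophage markers summed to 590, 618 and 1665, of which Cd68, a lysosomal protein, gave 382, 448 and 1419. Csf1r gave 187, 166 and 209, Lyz2 13, 4 and 31, and Adgre1 8, 0 and 6, while Ptprc and C1qa were at 0 in every library. The part of other cells in the values below was not tested. In pooled RNA, fewer cells of a type and less RNA per cell cannot be told apart.

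With OSM the gene set as a whole stayed near its vehicle level and individual enzymes moved in both directions. Acsl1, which activates long-chain fatty acids, was 1.77-fold lower, and Etfb, a subunit of the electron carrier that collects electrons from the acyl-CoA dehydrogenases, was 1.89-fold higher. Acsl1 is the longest and Etfb the shortest of the 39 genes, and with a trend of the changes on gene length removed they stood at -0.39 and 0.41 on the log2 scale and neither passed 1.5-fold. Of the 12 genes of the beta-oxidation spiral and its auxiliary enzymes, 11 were above vehicle, most of them slightly. With that trend removed 7 of the 12 were above 0, and with a trend on canonical transcript length removed only 4. Most genes of the pyruvate dehydrogenase complex were slightly lower. With IL-6 none of the 39 genes changed by as much as 1.2-fold.

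Changes are log2 ratios of counts scaled by TMM, edgeR's correction for library composition, and each carries a 95% interval of counting error. With 1 library a condition no test across conditions was possible, the values compare libraries, and no p-value is given. A gene was called only where its whole interval lay beyond 2-fold or, as a second rule, beyond 1.5-fold.

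None of the 39 genes was called beyond 2-fold with OSM against vehicle, where 3.74% of all 15537 genes compared were higher and 5.43% lower. Beyond 1.5-fold, 1 of the 39 was higher and 1 lower, against 8.73% and 11.9% of all genes, or 9.22% and 10.5% of the 4338 well-counted protein-coding ones (mean of 1000 counts or more). For the 39, log2 changes ran from -0.82 to 0.92 with a median of 0.07. The median was 0.005 for all genes compared and 0.073 for the well-counted protein-coding ones, close to that of the 39. The counting interval lay above 0 for 22 genes and below 0 for 12, and it held 0 for 5. In 23 of the 39 genes the change was under 1.2-fold. Under other library scalings 32 of the 39 genes kept 1 sign, and Acadm, Dlst, Hadha, Hadhb, Pdhb, Sucla2 and Suclg2 did not.

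With IL-6 against vehicle, no member was called beyond 2-fold (1.77% of all genes higher, 1.74% lower) or 1.5-fold (2.95% and 2.88% of all genes, 0.0242% each way of the well-counted ones). The 39 log2 changes lay between -0.08 and 0.14 with a median of 0.02, and the interval held 0 for 17. With OSM against IL-6, again none was called beyond 2-fold (background 4.24% higher and 5.42% lower), while Etfb was higher and Acsl1 lower beyond 1.5-fold (8.78% and 11.9% of all genes, 9.16% and 10.4% of the well-counted ones), and the median was 0.05. The OSM and IL-6 comparisons share the vehicle library. In 34 of the 39 genes (87.2%) the change from vehicle was larger in size with OSM than with IL-6, and so it was in 88.3% of the 4321 protein-coding genes with a mean of 1000 counts or more.

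**Figure D1:**
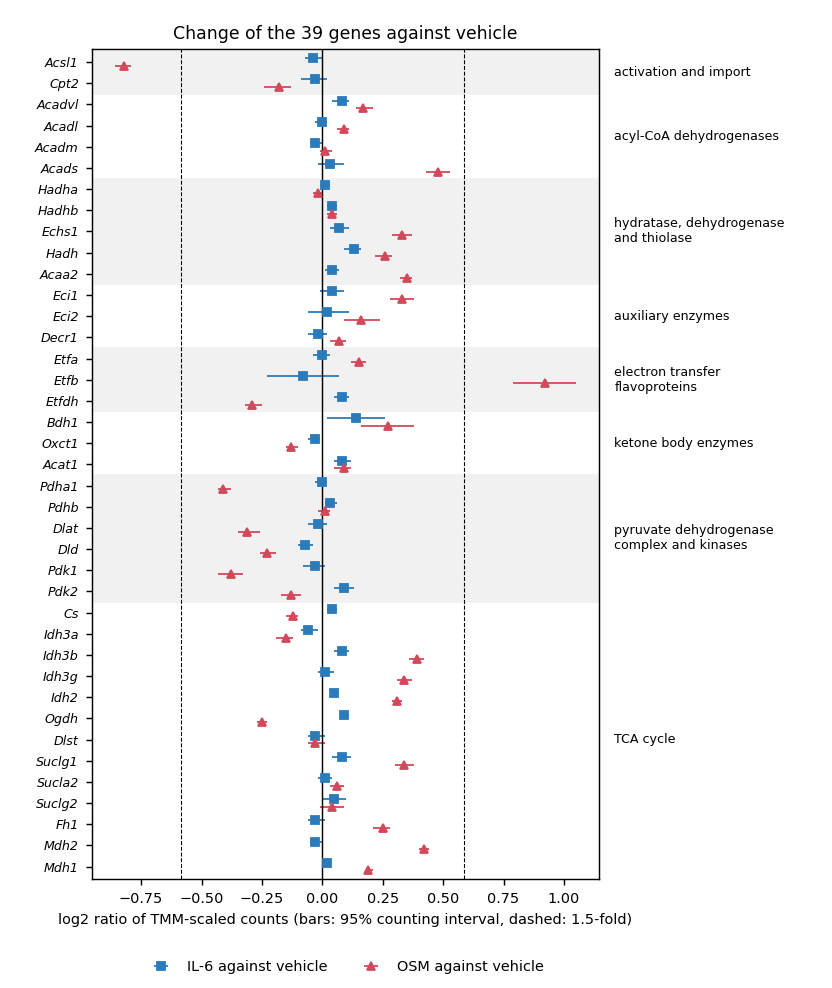
Each row is 1 of the 39 genes, grouped by step, and the horizontal axis is the log2 ratio to vehicle for IL-6 (blue squares) and OSM (red triangles), with 95% counting intervals as bars and 1.5-fold as dashed lines. The IL-6 points stay between -0.08 and 0.14, and Acsl1 (-0.82) and Etfb (0.92) are the OSM points whose intervals lie beyond the dashed lines.

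Levels between genes were compared with the deposited FPKM, which is per gene length. In vehicle ACMs they ran 54.2-fold, from 10.8 for Bdh1 to 588 for Mdh1, with a median of 139. Mdh1, cytosolic malate dehydrogenase, and Idh2, the NADP-linked mitochondrial isocitrate dehydrogenase, at 563, led the order, followed by Acaa2, the mitochondrial thiolase, at 519 and Acadl, long-chain acyl-CoA dehydrogenase, at 447. Bdh1, Eci2 (17.1) and Etfb (24.5) stood last. Across the 39 genes the order in OSM ACMs was close to that in vehicle (Spearman rho 0.978), with Idh2 (698) now above Mdh1 (674), and closer still in IL-6 ACMs (0.995). The 39 genes together took 2.63%, 2.71% and 2.62% of the vehicle, IL-6 and OSM counts.

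**Figure D2:**
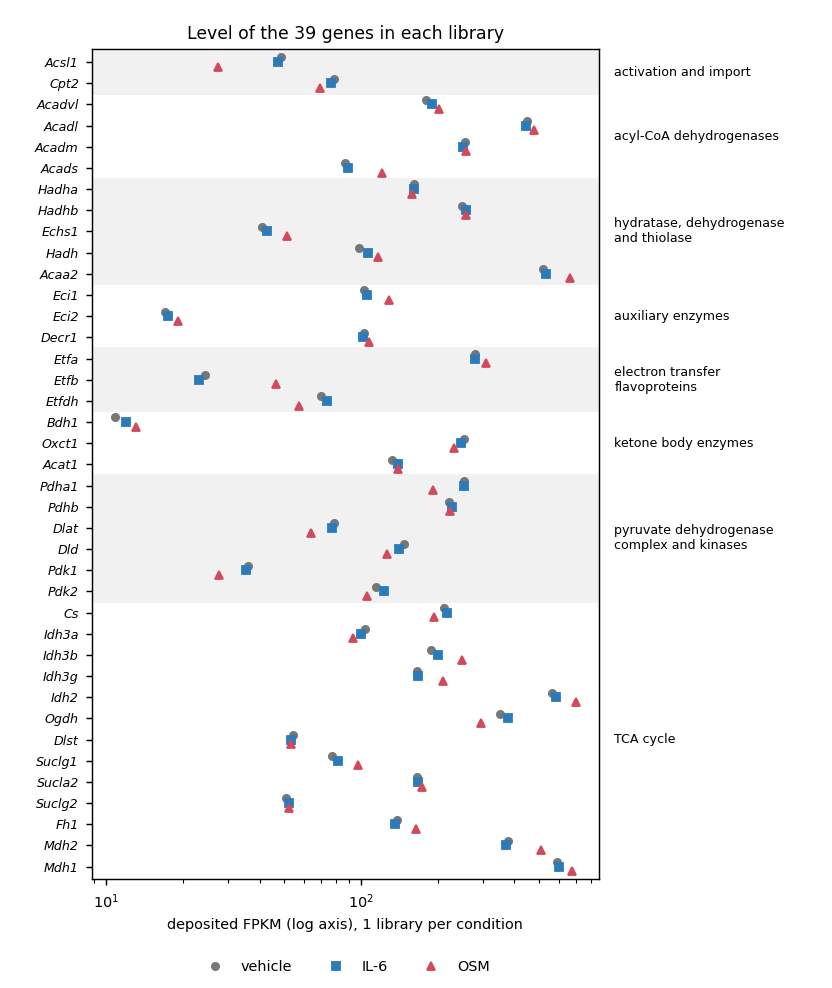
Each row is 1 of the 39 genes and the horizontal axis is the deposited FPKM on a log scale in the vehicle (grey), IL-6 (blue) and OSM (red) libraries, 1 library each. The levels run from 10.8 for Bdh1 to 588 for Mdh1 in vehicle, and the 3 points of a gene lie close together beside that range.

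Fatty acids are activated by long-chain acyl-CoA synthetases, of which Acsl1 is the main one of heart muscle, and enter the mitochondrial matrix with the help of Cpt2, the inner membrane carnitine palmitoyltransferase. Acsl1 had 12853 counts in vehicle, 13399 in IL-6 and 8580 in OSM ACMs, the deepest library. The OSM value was below both others, with a log2 change of -0.82 (95% counting interval -0.86 to -0.79) against vehicle and -0.78 (-0.82 to -0.75) against IL-6. Its deposited FPKM went from 48.5 to 27.4. With the length trend removed the change against vehicle was -0.39. Cpt2 had 4742, 4965 and 4934 counts in the same order and a log2 change of -0.18 with OSM. Both genes of this step were thus below vehicle with OSM, and with IL-6 Acsl1 was at -0.04 and Cpt2 at -0.03.

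The RefSeq promoter table, which covers 250 bases before and 50 after each start, was searched for motifs in GRCm38.p6, an older build than the GRCm39 of the files. It held 44 windows for 35 of the 39 genes, and Acaa2, Idh3a, Decr1 and Acat1 had no entry. On both strands, AAGGTCA, the extended half-site known to be bound by estrogen-related receptors, was in 2 of the 44 windows (4.55%, Acadm and Ogdh) and in 4.72% of all 32851 windows. TTCNNNGAA, the palindrome known to be bound by STAT proteins, was in 3 (6.82%, Cpt2, Hadha and Hadhb) and in 8.30% of all windows. GGGCGG, the GC box bound by Sp factors, was in 28 (63.6%) and in 35.7% of all windows. None of these matches is evidence of a bound site. The Acsl1 window nearest its first start, shown because this gene was lowest with OSM, lies at chr8:46470787-46471086 on the plus strand, and capitals mark the GC boxes, 2 of which overlap. A second Acsl1 window held none of the 3 motifs.
Acsl1: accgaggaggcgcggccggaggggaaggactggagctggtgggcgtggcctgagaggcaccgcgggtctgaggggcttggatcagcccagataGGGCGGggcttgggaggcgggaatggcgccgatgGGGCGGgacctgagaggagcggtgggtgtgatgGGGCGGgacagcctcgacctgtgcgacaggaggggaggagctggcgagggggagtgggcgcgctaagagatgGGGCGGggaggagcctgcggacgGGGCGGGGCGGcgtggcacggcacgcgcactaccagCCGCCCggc

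Each round of beta-oxidation opens with an acyl-CoA dehydrogenase matched to chain length, and 4 of these were measured. Acads, for short chains, had 4987 counts in vehicle, 5475 in IL-6 and 8217 in OSM ACMs. OSM stood above both others, with a log2 change of 0.48 (0.43 to 0.53) against vehicle, or 1.39-fold. Acadvl, for very long chains, had 12259, 13857 and 16325 counts and a log2 change of 0.17. Acadl had 22671, 24211 and 28506 (0.09), and Acadm, the medium-chain enzyme, had 25373, 26707 and 30234 (0.01, interval -0.01 to 0.04). The size of the change thus differed between chain lengths, and the count ratio of Acads to Acadm was 0.197 (0.191 to 0.203) in vehicle, 0.205 (0.199 to 0.211) in IL-6 and 0.272 (0.265 to 0.278) in OSM ACMs, where its interval did not meet those of the others. Most of the pairs compared below had such a gap, and these intervals cover counting error only. With the trend on deposited length removed Acads was at 0.19, Acadvl at -0.06, Acadl at -0.25 and Acadm at -0.07. With that on canonical length they were at 0.20, -0.04, -0.07 and -0.23, so that only Acads stayed above 0.

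Hadha and Hadhb encode the 2 subunits of the mitochondrial trifunctional protein, which carries out the remaining reactions on long chains. Hadha had 35527 counts in vehicle, 38254 in IL-6 and 41416 in OSM ACMs, and Hadhb had 41693, 46056 and 50787. Their log2 changes with OSM were -0.02 (-0.04 to 0.00) and 0.04 (0.02 to 0.06), and with IL-6 0.01 and 0.04. The count ratio of Hadha to Hadhb stayed between 0.815 in OSM and 0.852 in vehicle. The 2 genes lie head to head on chromosome 5, on opposite strands, with starts 273 bases apart in GRCm38.p6, and their promoter windows share 228 bases. The Hadhb window, chr5:30155003-30155302 on the plus strand, is shown because 1 stretch of DNA serves as promoter of both subunits. Capitals mark the TTCNNNGAA match, which begins 125 bases before the Hadhb start, and the GC boxes.
Hadhb: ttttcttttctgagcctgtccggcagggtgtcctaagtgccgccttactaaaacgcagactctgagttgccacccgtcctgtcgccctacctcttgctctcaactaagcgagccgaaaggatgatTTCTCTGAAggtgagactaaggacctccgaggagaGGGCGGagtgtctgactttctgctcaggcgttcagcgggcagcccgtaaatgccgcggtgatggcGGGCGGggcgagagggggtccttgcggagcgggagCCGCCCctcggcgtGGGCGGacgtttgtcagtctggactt

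Hadhb counts carry a limit. A processed pseudogene on chromosome 2, Hadhb-ps, matches the Hadhb transcript at 97% identity or more, and with a second one 70.2% of the transcript is copied. Hadhb-ps was listed with 10507, 11482 and 11144 counts in vehicle, IL-6 and OSM, or 0.252, 0.249 and 0.219 counts for each Hadhb count, so that the split of reads between gene and copy is uncertain.

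The separate matrix enzymes for shorter chains were above vehicle with OSM, and the sign of 2 of the 3 depended on gene length. Acaa2 had 19903 counts in vehicle, 21890 in IL-6 and 29895 in OSM ACMs, a log2 change of 0.35 (0.32 to 0.37). Echs1, the short-chain enoyl-CoA hydratase, had 8584, 9642 and 12729 counts (0.33), and Hadh, the short-chain hydroxyacyl-CoA dehydrogenase, had 12370, 14493 and 17454 (0.26). Hadh was also the second highest of the 39 genes with IL-6, at 0.13 (0.09 to 0.16). In these 3 genes the OSM value was the highest of the libraries after scaling, and IL-6 lay between it and vehicle. With the trend on deposited length removed Acaa2 was at -0.09, and with that on canonical length Hadh was at -0.04.

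Unsaturated fatty acids need auxiliary enzymes that move or remove double bonds. Eci1, an enoyl-CoA isomerase, had 5521, 6091 and 8226 counts in vehicle, IL-6 and OSM (log2 change 0.33 with OSM), its relative Eci2 had 2403, 2620 and 3181 (0.16), and the dienoyl-CoA reductase Decr1 had 10129, 10691 and 12543 (0.07). Over the 12 genes of the spiral and its auxiliary enzymes, 11 were above vehicle with OSM, and the median log2 change was 0.17. Of those 11, Acadm and Hadhb changed sign under some scaling. With the length trend removed 7 of the 12 were above 0, and with the trend on canonical length 4 of the 12.

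Electrons taken up by the acyl-CoA dehydrogenases pass to the electron transfer flavoprotein, a heterodimer of Etfa and Etfb, and from there through Etfdh to ubiquinone. The 3 genes diverged with OSM. Etfb had 722 counts in vehicle, 730 in IL-6 and 1612 in OSM ACMs, a log2 change of 0.92 (0.79 to 1.05) against vehicle and 1.00 (0.87 to 1.13) against IL-6. Etfa had 12987, 13903 and 17030 counts (0.15 with OSM), and Etfdh had 13221, 14980 and 12822 (-0.29 with OSM, 0.08 with IL-6). Etfb counts for each Etfa count were 0.0556 (0.0515 to 0.0599) in vehicle, 0.0525 (0.0487 to 0.0566) in IL-6 and 0.0947 (0.0899 to 0.0996) in OSM, and Etfdh counts for each Etfa count were 1.02, 1.08 and 0.753. With the length trend removed the change of Etfb against vehicle was 0.41, that of Etfa -0.22 and that of Etfdh -0.06. With the trend on canonical length removed they were 0.41, -0.16 and -0.46, so that the order of Etfa and Etfdh depended on the length used. The vehicle and IL-6 ratios of Etfb to Etfa overlapped and the OSM value lay outside both intervals.

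The level of Etfb needs care, because 69.1% of its canonical transcript is overlapped on the same strand by a read-through gene, Etfbl, listed at 0 counts in every library. By FPKM, Etfb was at 0.0876 of Etfa in vehicle, 0.0828 in IL-6 and 0.149 in OSM ACMs. The part of the overlap in these levels was not tested. The Etfb window, shown because this gene was highest with OSM, lies at chr7:43443822-43444121 on the plus strand, and capitals mark its GC box.
Etfb: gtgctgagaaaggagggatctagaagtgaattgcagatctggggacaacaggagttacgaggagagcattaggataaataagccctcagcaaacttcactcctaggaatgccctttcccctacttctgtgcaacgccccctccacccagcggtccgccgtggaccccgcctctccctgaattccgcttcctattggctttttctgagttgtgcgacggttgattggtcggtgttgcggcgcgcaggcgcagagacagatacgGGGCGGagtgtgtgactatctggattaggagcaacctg

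Ketone bodies enter as acetyl-CoA through Bdh1, which oxidises hydroxybutyrate, Oxct1, which transfers CoA to acetoacetate, and the thiolase Acat1. Bdh1, the lowest of the 39 in FPKM, had 1067, 1261 and 1520 counts in vehicle, IL-6 and OSM, with log2 changes of 0.27 (0.16 to 0.38) with OSM and 0.14 (0.02 to 0.26) with IL-6. Oxct1 had 23651, 24745 and 25572 counts (-0.13 with OSM) and Acat1 had 12524, 14226 and 15709 (0.09). No ketone body enzyme was called.

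Pyruvate is turned into acetyl-CoA by the pyruvate dehydrogenase complex, which pyruvate dehydrogenase kinases switch off. Pdha1, the catalytic alpha subunit, had 23900 counts in vehicle, 25556 in IL-6 and 21294 in OSM ACMs. Its log2 change with OSM was -0.41 (-0.43 to -0.38), or 1.33-fold lower, and with IL-6 it was -0.00. Its partner Pdhb had 21628, 23737 and 25684 counts and a log2 change of 0.01, so that Pdha1 counts for each Pdhb count were 1.11 (1.08 to 1.13), 1.08 (1.06 to 1.10) and 0.829 (0.814 to 0.844). Dlat, the acetyltransferase core, had 9706, 10229 and 9281 counts (-0.31) and Dld, the dehydrogenase shared with the oxoglutarate complex, had 13793, 14087 and 13916 (-0.23). The beta subunit was alone among these 4 in standing level with vehicle before any length trend was removed. With the trend on deposited length removed Pdhb was at -0.09 and Dlat at -0.28, but with that on canonical length at -0.34 and 0.10. Of the Pdhb transcript, 70.8% is copied in the pseudogene Gm6123, listed with 419, 376 and 388 counts.

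Both kinases were lower with OSM too. Pdk1 had 7104, 7431 and 6465 counts in vehicle, IL-6 and OSM (-0.38, interval -0.43 to -0.33) and Pdk2 had 9235, 10535 and 9998 (-0.13). With IL-6 they were at -0.03 and 0.09. Over this step 5 of 6 genes had an OSM interval below 0 and the median was -0.27, the lowest of the steps with more than 2 genes. With the trend on deposited length removed 0 of the 6 were above 0, and with that on canonical length 1, Dlat at 0.10.

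In the TCA cycle, 9 of 13 genes were above vehicle with OSM and the median log2 change was 0.19. With the trend on deposited length removed the median was 0.07. Mdh2, the mitochondrial malate dehydrogenase, had 34093 counts in vehicle, 35886 in IL-6 and 54082 in OSM ACMs, a log2 change of 0.42 (0.40 to 0.44) or 1.34-fold, against -0.03 with IL-6. Mdh1 had 39578, 43035 and 53562 counts (0.19). Idh2 had 36851, 40949 and 53984 (0.31). Fh1, fumarate hydratase, had 11913, 12533 and 16693 (0.25). These 4 stood above both other libraries. With the trend on deposited length removed they were at 0.30 (Mdh2), -0.04 (Mdh1), 0.07 (Idh2) and 0.10 (Fh1). With that on canonical length they were at 0.07, 0.04, 0.01 and 0.49 in the same order. Cs, citrate synthase, which opens the cycle, had 30865, 33941 and 33465 counts and was slightly below vehicle (-0.12).

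The NAD-linked isocitrate dehydrogenase is built from Idh3a, Idh3b and Idh3g, and its subunits split. Idh3b had 16387, 18560 and 25399 counts in vehicle, IL-6 and OSM (0.39 with OSM) and Idh3g had 11318, 12255 and 16939 (0.34), whereas the catalytic Idh3a had 13328, 13707 and 14165 (-0.15). Idh3a counts for each Idh3b count were 0.813 (0.795 to 0.832) in vehicle, 0.739 (0.722 to 0.755) in IL-6 and 0.558 (0.546 to 0.569) in OSM, and the 3 intervals did not overlap. The ratio of Idh3g to Idh3b stayed between 0.660 and 0.691.

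The oxoglutarate dehydrogenase complex follows. Ogdh, its catalytic subunit, had 48625, 55575 and 48280 counts in vehicle, IL-6 and OSM, with log2 changes of -0.25 (-0.27 to -0.23) with OSM and 0.09 (0.08 to 0.11) with IL-6. Dlst, its succinyltransferase, had 13068, 13723 and 15178 counts (-0.03 with either cytokine). The sign of Ogdh with OSM depended on gene length, at -0.18 with the trend on deposited length removed and 0.17 with that on canonical length.

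Succinyl-CoA ligase pairs Suclg1 with Sucla2 in its ATP-forming and with Suclg2 in its GTP-forming version. Suclg1 had 8988, 10203 and 13482 counts (0.34 with OSM), Sucla2 had 16722, 18029 and 20635 (0.06), and Suclg2 had 5913, 6560 and 7189 (0.04). Suclg2 counts for each Sucla2 count were 0.354, 0.364 and 0.348 in vehicle, IL-6 and OSM with overlapping OSM and vehicle intervals, while Sucla2 counts for each Suclg1 count went from 1.86 to 1.53. With the trend on deposited length removed Suclg1 was at 0.34 and Sucla2 at -0.02, but with that on canonical length they were at -0.01 and -0.02. The pseudogene Gm15163, with 347, 414 and 239 counts, copies 38.0% of the Suclg2 transcript.

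**Figure D3:**
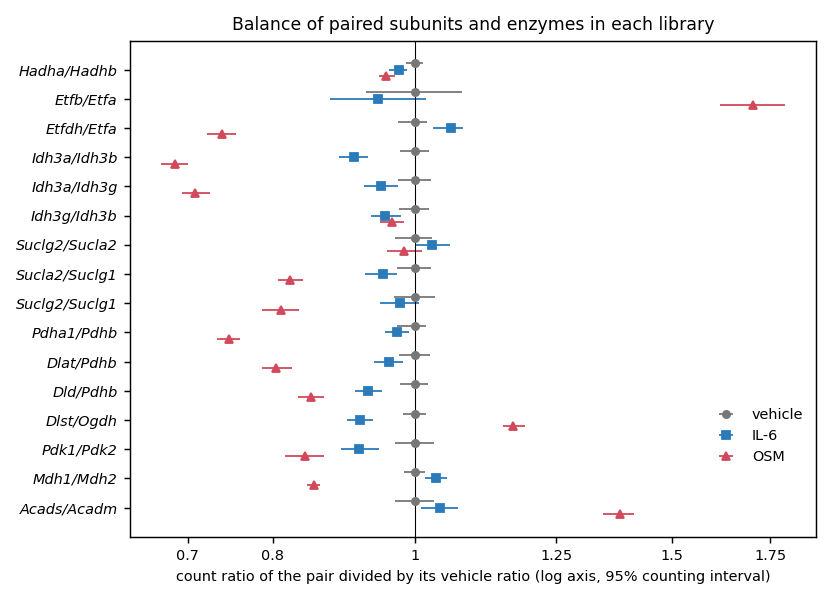
Each row is a pair of members from 1 complex or reaction, and the horizontal axis is the ratio of their counts divided by the ratio in vehicle, on a log scale, with 95% counting intervals. The OSM points (red) of Hadha/Hadhb, Idh3g/Idh3b and Suclg2/Sucla2 stay near 1, those of Idh3a/Idh3b, Idh3a/Idh3g, Etfdh/Etfa and Pdha1/Pdhb lie lowest, and Etfb/Etfa lies highest.

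Gene length moved with the OSM changes. Across the 39 genes the log2 change with OSM had a Pearson correlation of -0.59 and a Spearman correlation of -0.52 with the gene length of the deposited table, and with the length of the canonical GENCODE transcript -0.71 and -0.68. Without Acsl1 and Etfb the values with the deposited length were -0.41 and -0.44. The points share 2 libraries, and the figures are a description. The shortest 13 genes (1164 to 3392 bases) had a median log2 change of 0.25 with 11 above 0, the middle 13 a median of 0.06 with 10 above 0, and the longest 13 (4886 to 10483 bases) a median of -0.12 with 4 above 0. Acsl1 (10483 bases) was the longest and Etfb (1164 bases) the shortest of the 39. With IL-6 the correlations with the deposited length were 0.08 and 0.04.

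The same trend ran through all genes. Among genes averaging 100 counts or more, those of 243 to 2122 bases had a median log2 change of 0.47 with OSM and those of 9608 bases or more had -0.56, against 0.02 and -0.03 at the same ends with IL-6. Of the 39 members, 29 lay inside the middle 50% of all genes of their own length class with OSM, 3 above and 7 below. When a lowess trend on length over 9444 genes was subtracted, the median of the 39 members became -0.02, 17 of them were above 0, and none was called beyond 1.5-fold. Acsl1 then stood at -0.39 and Etfb at 0.41, whereas Pdha1 stood at -0.51, further from 0 than before. By step, the medians after subtraction were -0.07 for the acyl-CoA dehydrogenases, 0.29 for the hydratase, dehydrogenase and thiolase genes, -0.29 for the pyruvate dehydrogenase complex with its kinases and 0.07 for the TCA cycle. Echs1, at 0.61, had the largest value after the subtraction, but its deposited length of 8286 bases is well above the 2341 bases of its canonical transcript. What lies behind the length trend was not tested.

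**Figure D4:**
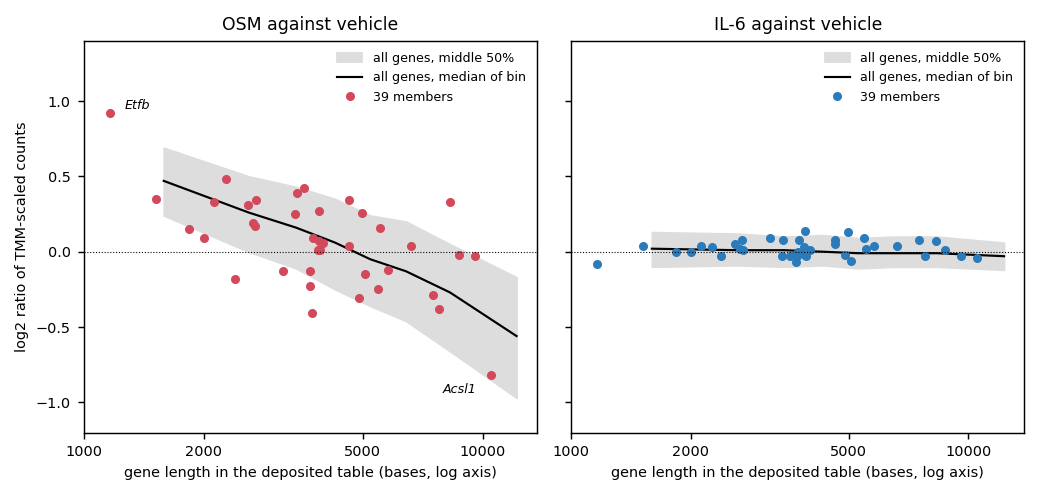
The horizontal axes give the gene length of the deposited table on a log scale and the vertical axes the log2 ratio to vehicle for OSM (left) and IL-6 (right), with the 39 genes as points, the median of all genes in 8 length classes as a line and their middle 50% as the grey band. The OSM line falls from 0.47 to -0.56 with most members inside the band, and the IL-6 line stays between -0.03 and 0.02.

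Other genes of fatty acid oxidation gave a wider spread than the 39. Of 30 listed, all were compared with OSM against vehicle, 2 were called higher and 4 lower beyond 1.5-fold, and the median was -0.30. The calls are 6.67% and 13.3% of the list, near the 8.73% and 11.9% of all genes. The list has a median of 5.13 FPKM in vehicle against 139 for the 39, so the 2 spreads are of genes with unlike counts. Cpt1a, an outer membrane carnitine palmitoyltransferase that commits fatty acids to oxidation, had 656, 571 and 317 counts in vehicle, IL-6 and OSM (-1.29, interval -1.49 to -1.10). Acacb, which makes the malonyl-CoA that blocks that step, had 7015, 7172 and 4078 (-1.02), its cytosolic relative Acaca had 952, 1007 and 467 (-1.27), and the matrix thioesterase Acot2 had 4341, 4573 and 2264 (-1.18). In the other direction stood Acsl5, a sister of Acsl1, with 64, 88 and 383 counts (2.34, interval 1.95 to 2.74), and Hsd17b10, a hydroxyacyl-CoA dehydrogenase (0.66). With the length trend removed Acaca was at -0.48, Acacb at -0.65 and Hsd17b10 at 0.18, whereas Cpt1a was at -1.05, Acot2 at -1.49 and Acsl5 at 2.36. Acot13, a thioesterase at 171 FPKM in vehicle, had the highest level of the list and a log2 change of 0.42. With the length trend removed Acot13 was at -0.20. Other genes overlap 74.5% of its exon bases on the opposite strand, so its level is uncertain without the strand setting.

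Cpt1b, the carnitine palmitoyltransferase known as the muscle form, gave 34, 34 and 31 counts. A read-through gene, Gm44502, listed at 0 counts, overlaps 89.8% of its canonical transcript on the same strand, and a level for Cpt1b cannot be read from these values.

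Around pyruvate, 10 further genes were listed, with 1 called higher and 1 lower, or 10.0% each way against 8.73% and 11.9% of all genes. Pdpr, the regulatory subunit of pyruvate dehydrogenase phosphatase, had 2697 counts in vehicle, 3009 in IL-6 and 680 in OSM ACMs, a log2 change of -2.23 (-2.35 to -2.11), and Mpc2, a subunit of the pyruvate carrier, was at 0.65. Pdk4, the kinase known to respond to fatty acids, had 9506, 9656 and 10449 counts (-0.11), and Ldhb, lactate dehydrogenase B, had the highest level at 710 FPKM in vehicle (0.41). Of 20 further genes of the TCA cycle and its supply that were in the table, none was called, with a median of -0.02. Of succinate dehydrogenase, Sdha was at -0.03 and Sdhb at 0.42.

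Fatty acid uptake and storage genes (18 of 19 compared, median 0.03) held 2 called higher and 2 called lower. The share was 11.1% each way, near the 8.73% and 11.9% of all genes. The uptake receptor Cd36 had 30126, 31335 and 22613 counts in vehicle, IL-6 and OSM (-0.66, interval -0.68 to -0.63), and Gpam, which starts triglyceride synthesis, had 6144, 6166 and 2756 (-1.40). Plin2, a lipid droplet coat protein, had 3379, 3436 and 9288 (1.22), and Fabp3, the heart fatty acid-binding protein and the highest of the list at 1544 FPKM in vehicle, had 32155, 36341 and 58836 (0.63). After subtraction of the length trend Fabp3 was at 0.03 and Cd36 at -0.78. None of 20 further ketone body and branched-chain amino acid genes compared was called, and their median was 0.01.

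Of 22 transcriptional regulators of these pathways, 6 were called lower and 1 higher with OSM beyond 1.5-fold, with a median of -0.34. The shares were 27.3% lower and 4.55% higher, against 11.9% and 8.73% of all genes. Esrrg, an estrogen-related receptor of oxidative muscle, had 1278 counts in vehicle, 1402 in IL-6 and 306 in OSM ACMs (-2.30, interval -2.49 to -2.12). Ppargc1a, a coactivator of mitochondrial genes, had 1035, 937 and 351 (-1.80), and Ppara, the receptor that fatty acids activate, had 300, 307 and 103 (-1.78). The corepressor Ncor1 (-1.40) and Mef2c (-1.31) were lower as well and are long genes, at -0.82 and -0.57 after the length trend was removed, whereas Esrrg was at -2.17. Mef2a (-0.90) was the sixth called lower and is long too, at -0.22 after subtraction, so that Mef2c and Mef2a then lay within 1.5-fold, and Hif1a, the hypoxia factor, with 1871, 1725 and 4317 counts (0.96), the gene called higher. Esrra, the highest of the list at 26.7 FPKM in vehicle, was at -0.04. The regulators and the 39 enzymes were measured in the same 3 libraries, and whether their changes are related was not tested.

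**Figure D5:**
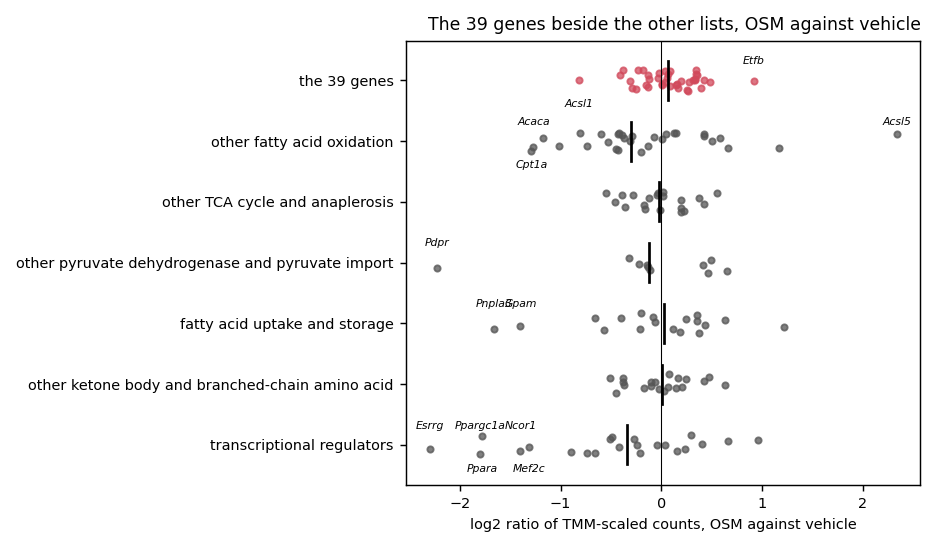
Each point is a gene with at least 10 counts in the pair, the horizontal axis is the log2 ratio of OSM to vehicle, and black bars are medians of the 39 genes (red, 0.07) and of the 6 other lists (grey). The 39 genes lie between -0.82 and 0.92, and Acsl5 (2.34), Esrrg (-2.30) and Pdpr (-2.23) lie farthest out.

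The respiratory chain, which takes the electrons these enzymes release, was set beside them together with ATP synthase. The list of nuclear-encoded subunits holds the Atp5 genes of ATP synthase and leaves out succinate dehydrogenase. Of its 74 genes, 73 were above vehicle with OSM, 34 were called higher beyond 1.5-fold and none lower. The share called higher was 45.9%, against 8.73% of all genes. The median was 0.62 against 0.07 for the 39. These subunits are short, with a median length of 1578 bases against 3861, and with the length trend removed the medians were 0.17 and -0.02. The 13 mitochondrially encoded proteins had a median of -0.28, or -0.91 with the length trend removed. The difference between the lists was not tested, since each condition is 1 library.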

How the data were processed

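Poly-A RNA of ACMs was sequenced as paired reads. The build was GRCm39 (mm39 in the labels), and the submitters' processing notes name fastp, HISAT2 2.2.1, featureCounts 2.0.6 and edgeR 4.0.16. The strand setting and the annotation release are not given in the sources used here, so that overlapping and antisense genes are uncertain. The authors deposited raw whole-number counts per gene and FPKM values made from them with a length per gene.

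TMM factors (edgeR 4.0.16, R 4.3.3) were taken over all genes of a pair, and genes reaching 10 counts in the pair were compared by the log2 ratio of scaled counts. Its 95% Clopper-Pearson interval covers counting error only, since reads carry no molecular identifiers, and its median half-width was 0.0340 and its widest 0.13 (Etfb). Count ratios within a library have an interval of the same kind. In every pair compared except Hadha/Hadhb, Idh3g/Idh3b and Suclg2/Sucla2 the OSM interval lay outside those of vehicle and IL-6. In some pairs, such as Idh3a/Idh3b, those of vehicle and IL-6 did not overlap either. A lowess trend (span 0.3) on gene length used genes averaging 100 counts or more. Calls were tried on simulated data first. Overlaps, canonical transcripts and copies (97% identity over 75 bases or more) came from GENCODE M39, which holds 56017 of the 56748 identifiers.

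Of each other list, the genes called beyond 1.5-fold with OSM (up to 5 with the largest change) and the gene of the highest level were named, except 1 that is not reported here. Hsd17b10, Cpt1b, Pdk4, Sdha, Sdhb, Mef2a, Hif1a and the genes of the closing section were added after their values were seen. The 39 genes and the lists were chosen with earlier results of these data known.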

Additional observations from a re-analysis of the deposited data

How the results depend on the processing

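No paired analysis was possible because each condition is 1 library and the labels carry no replicate numbers. For the same reason no library could be left out. The counts of members called beyond 2-fold by their intervals, and the median and counts with IL-6 against vehicle, stayed close to the values given under other scalings (DESeq2 size factors, library totals, upper quartile, TMM over all 3 libraries or without mitochondrially encoded genes), other count filters and the deposited FPKM. Of single genes with IL-6, Acadl, Etfa and Pdha1, at -0.00, turned positive by library totals. Settings moved the following. The median log2 change of the 39 genes with OSM against vehicle was 0.005 by library totals, -0.023 with the gene length trend removed and -0.038 with the canonical length trend removed. Against IL-6 it was -0.028, -0.042 and -0.042. With either length trend removed, 0 of the 39 genes were higher and 0 lower beyond 1.5-fold in both comparisons. By the point estimate alone, without an interval, 1 gene (Etfb) was higher beyond 2-fold with OSM against IL-6. Etfb lay between 0.86 and 0.95 and Acsl1 between -0.89 and -0.79 over the scalings with OSM against vehicle, and with the canonical trend removed they stood at 0.41 and -0.53. Mdh2 went from 0.30 with the deposited length to 0.07 with the canonical one. Of the 39 genes, 18 kept 1 sign with OSM over all scalings and both length trends, and 15 were above 0 with the canonical trend removed. The canonical length and TMM over genes with at least 10 counts were added after seeing the data. Depth did not limit these genes, whose counts ran from 722 to 55575, but the lack of replicate libraries leaves the spread between cultures unknown.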

Other observations

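Branched-chain amino acid breakdown, which shares Acat1, Dld and the electron transfer flavoprotein with the genes above, also moved in both directions with OSM and had no gene called beyond 1.5-fold. Bcat2, the mitochondrial aminotransferase of the first step, had 2744 counts in vehicle, 2695 in IL-6 and 4495 in OSM ACMs (log2 change 0.47). Of the branched-chain ketoacid dehydrogenase complex, Bckdha was at 0.24, Bckdhb at 0.07 and its core Dbt at -0.37. Aldh6a1, of the valine branch, had 5750, 6121 and 4769 counts and was the lowest of this list at -0.51, and Aacs, which activates acetoacetate in the cytosol, was the highest at 0.63 with 405, 391 and 740 counts.

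The order of levels depends on the length used. With canonical transcript lengths Mdh2 (897), Idh2 (833) and Hadhb (811) led the 39 genes in vehicle, in place of Mdh1, Idh2 and Acaa2, and Bdh1 (13.5) stayed last. Echs1, at 41.0 FPKM with its deposited length, stood at 145.

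Pdpr was lower with OSM by more than any member. With the trend on deposited length removed it was at -2.19, close to its unadjusted -2.23. That value rests on the deposited length of 5028 bases, and the canonical Pdpr transcript is longer, at 8088 bases. Mpc1 and Mpc2, which together form the pyruvate carrier, were listed at -0.22 (1104, 931 and 1122 counts) and 0.65 (4992, 5655 and 9263 counts). Of the Mpc1 transcript, 23.1% is copied in Mpc1-ps, which was listed with more counts than Mpc1 over the libraries together. The split of reads between Mpc1 and its copy is therefore uncertain. For Mpc2 the deposited length of 7344 bases is well above the 1390 bases of its canonical transcript. Whether the carrier subunits differ cannot be read from these values.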
